A study of Rattus norvegicus with 8 samples.

Results

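Fabp7 encodes the brain-type fatty acid binding protein, and it is described here beside the other fatty acid binding proteins that the array measures, in brain tissue of rat embryos that carry a Pax6 mutation on both chromosomes and of wild-type embryos. The members were all probe sets whose single gene symbol in the array's annotation was Fabp7, Fabp5, Fabp3, Fabp1 or Fabp2. They were 5 probe sets, 1 for each of the 5 genes, of 8799 probe sets on the array and of 4737 genes with a symbol of their own. RNA was compared in 4 groups of 2 arrays each, all from embryos at E12.5: Pax6 homozygous forebrain, wild-type forebrain, Pax6 homozygous hindbrain and wild-type hindbrain. Heads were divided at the isthmus. What is called forebrain here therefore includes midbrain, eye and nose primordia, and what is called hindbrain includes the pharyngeal arches. The labels do not name the Pax6 allele or say how many embryos each array stands for. Nor do they tell whether replicate arrays were made from different animals, so the p-values measure the spread between these arrays, which may be technical.

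Fatty acid binding proteins are small cytoplasmic proteins that fold into a barrel around a long-chain fatty acid and carry it between membranes, enzymes and lipid-sensing nuclear receptors. Each was named for the tissue in which it was first abundant: Fabp7 for brain, Fabp5 for epidermis, Fabp3 for heart and muscle, Fabp1 for liver and Fabp2 for intestine. Fabp7 marks radial glia, the progenitors that line the ventricle of the embryonic neural tube, and binds polyunsaturated fatty acids such as docosahexaenoic acid. Pax6 is a paired-domain and homeodomain transcription factor of progenitors in the forebrain and hindbrain, and of the eye and nose.

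The promoter of Fabp7 is shown because Fabp7 was the member that differed most between genotypes. The 250 bases before its RefSeq start lie at chr20:37669356-37669605 on the plus strand of the rat build GRCr8. Capitals mark ATTA, the core that homeodomain proteins can bind, and the CCAAT box, both searched on each strand; CCAAT stands on the minus strand here and so appears as ATTGG.
Fabp7 promoter: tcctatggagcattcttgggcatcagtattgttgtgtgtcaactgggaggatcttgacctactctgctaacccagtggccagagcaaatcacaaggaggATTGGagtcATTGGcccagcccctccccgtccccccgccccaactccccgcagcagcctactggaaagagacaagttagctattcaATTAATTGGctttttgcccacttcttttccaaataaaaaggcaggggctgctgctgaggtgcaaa
The window held 3 CCAAT matches, which began 151, 142 and 61 bases before the start, and 2 ATTA matches, at 65 and 63 bases, which overlap each other, the second also overlapping the nearest CCAAT match. Of 33469 promoters of the same length, 34% held CCAAT at all and 2.52% held it 3 times or more. ATTA stood in 57% of them and at least 2 times in 32.7%. TATAAA (12.9% of promoters), GTGGGAA (5.27%) and ATGCAAAT (1.56%) were searched on each strand too and these letters did not occur in the window. RefSeq lists other Fabp7 transcripts that start further upstream, and a match describes letters only.

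Dim values were judged by a noise level, which was taken for each array as the absolute value of its 5th percentile and lay between 243 and 620. The noise level was 389 to 620 on the 4 arrays numbered 1 and 243 to 352 on the 4 numbered 2. Fabp7, Fabp5 and Fabp3 exceeded it on 8 of 8 arrays. Fabp1 and Fabp2 exceeded it on 0 of 8. Only those first 3 members passed the filter on dim probe sets and were tested.

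Fabp7 was far lower in Pax6 homozygous embryos in both parts of the brain. Its intensity was 528 and 472 on the 2 Pax6 homozygous forebrain arrays, against 3117 and 3934 on the 2 wild-type forebrain arrays. It was 1190 and 1205 on the Pax6 homozygous hindbrain arrays, against 16568 and 15111 on the wild-type hindbrain arrays. The highest of the 4 Pax6 homozygous arrays therefore lay below the lowest of the 4 wild-type arrays, as was the case for 1.19% of the 5881 probe sets tested.

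In forebrain, Fabp7 averaged 500 ± 40.1 in Pax6 homozygous and 3526 ± 578 in wild-type tissue (SD, n = 2 each), so its mean was 14.2% of wild-type. The log2 change was -2.81 ± 0.23 (SE, 95% interval -3.34 to -2.29), or 7.02-fold lower (4.88 to 10.1), with an adjusted p = 0.00577 from limma over all probe sets tested. The lowest wild-type array stood 5.9-fold above the highest Pax6 homozygous one. The Pax6 homozygous values were 1.01 and 1.64 times the noise level of their own arrays, and the wild-type values 5.65 and 11.2 times. The forebrain call was lost when the first or the second Pax6 homozygous forebrain array was left out (adjusted p = 0.0668 and 0.0504, with log2 changes of -2.89 and -2.73). It was also lost with all probe sets in the test, with no intensity trend in the variance, and with only the 4 forebrain arrays in the fit, always at a log2 change of -2.81.

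In hindbrain, Fabp7 averaged 1197 ± 10.3 in Pax6 homozygous and 15840 ± 1031 in wild-type tissue (SD, n = 2 each), which was 7.56% of wild-type. The log2 change was -3.72 ± 0.23 (95% interval -4.25 to -3.20), 13.2-fold lower (9.18 to 19.0), with an adjusted p = 0.000558 from limma. The arrays of the genotypes did not overlap, and 14.5% of probe sets lay lower without overlap in the same way. The Pax6 homozygous arrays read 3.06 and 4.95 times their noise level and the wild-type arrays 26.7 and 55.8 times, so the hindbrain values lay clear of noise in both genotypes. Averaged over both parts, Fabp7 was 9.63-fold lower, a log2 change of -3.27 ± 0.16 (95% interval -3.64 to -2.90) with an adjusted p = 9.06e-05 from limma.

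Of the 3 members tested, Fabp7 was the 1 past the threshold in forebrain and the 1 past it in hindbrain. Over all 5881 probe sets, 0.017% passed in forebrain and 0.017% in hindbrain, which was Fabp7 itself each time. Over both parts 0.034% passed, which were the probe sets of Fabp7 and Pgk1. Pgk1, a glycolytic kinase named after its values were seen, went the other way, with a log2 change of 1.55 ± 0.16 (adjusted p = 0.0171, limma). At an unadjusted p under 0.05, 172 probe sets differed in forebrain and 264 in hindbrain. By size alone, 14 probe sets changed more than Fabp7 in forebrain and 7 in hindbrain, but 0 changed more when both parts were averaged. A log2 change of -1 or lower in both parts was found for 35 probe sets, 5 of which exceeded noise on all 4 wild-type arrays. At -2 or lower in both there were 3, and the 2 of these above noise were Fabp7 and 1 of the 3 Supt5h probe sets, while the other Supt5h probe sets read 0.26 and 0.91 in forebrain and 0.40 and -0.09 in hindbrain. These limits were chosen after the Fabp7 values were known.

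**Figure D1:**
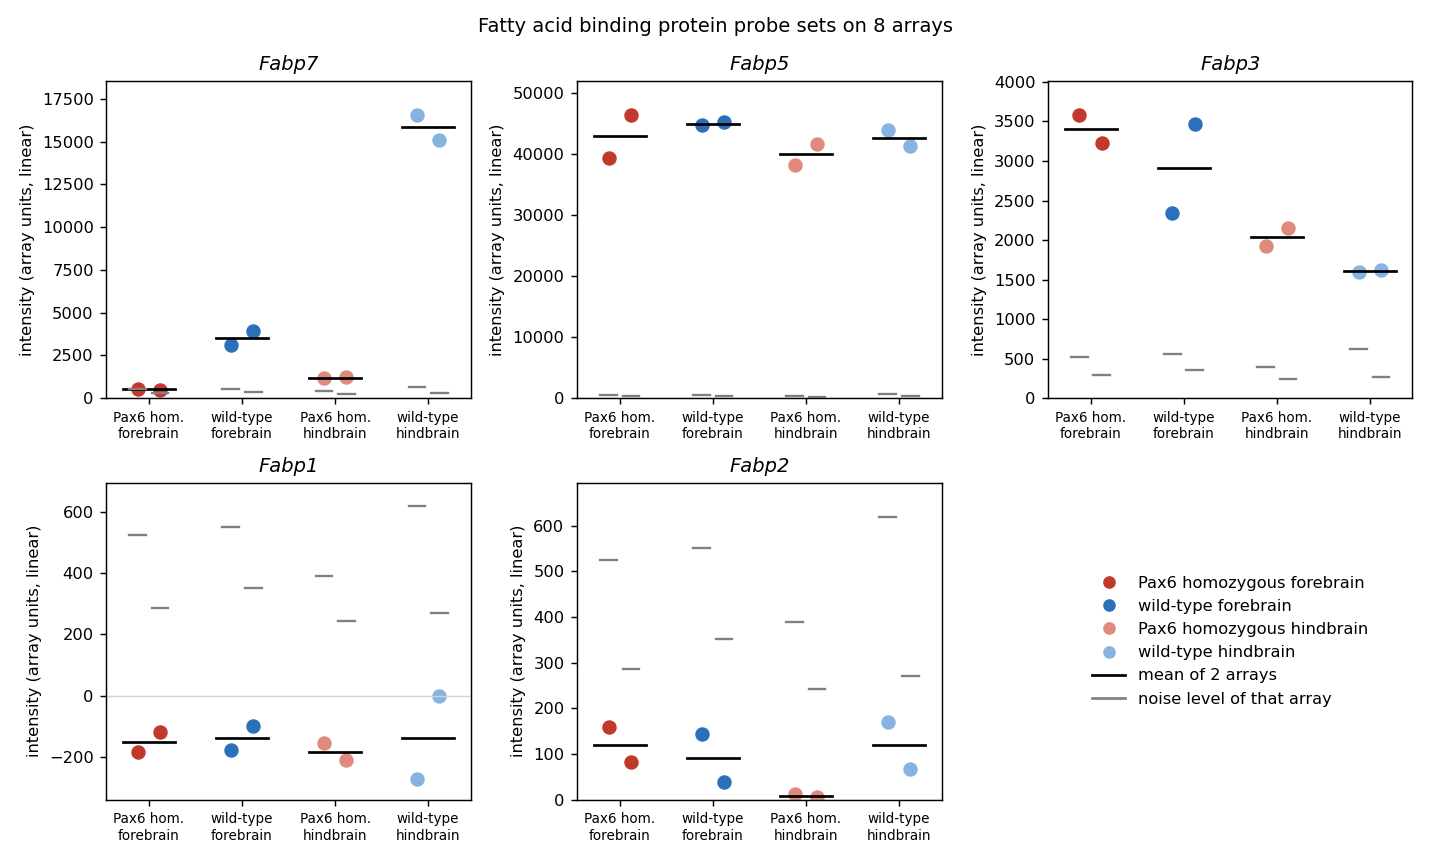
Intensity (linear array units) of the 5 fatty acid binding protein probe sets on the 8 arrays, with 1 point per array, a black bar for the mean of 2 arrays and a grey bar for the noise level of each array. Fabp7 differs between genotypes in both parts of the brain, Fabp5 lies between 38186 and 46354 on every array, Fabp3 is higher on every forebrain array than on any hindbrain array, and Fabp1 and Fabp2 stay under the noise level.

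Fabp7 also differed between the parts of the wild-type brain. Its forebrain level was below its hindbrain level in each genotype, without overlap of the arrays. Among the 4 groups its mean rose in the order Pax6 homozygous forebrain, Pax6 homozygous hindbrain, wild-type forebrain and wild-type hindbrain, with means of 500, 1197, 3526 and 15840. In wild-type tissue the forebrain-minus-hindbrain log2 difference was -2.18 ± 0.23 (95% interval -2.70 to -1.65; adjusted p = 0.00297, limma), so hindbrain was 4.52-fold above forebrain. In Pax6 homozygous tissue it was -1.26 ± 0.23 (95% interval -1.79 to -0.74), a hindbrain level 2.40-fold above that of forebrain, which missed the threshold (adjusted p = 0.0637, limma).

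Past the threshold were 0.782% of probe sets in the wild-type comparison of the parts and 0.459% in the Pax6 homozygous one, and arrays that did not overlap were found for 26.7% and 35.6%. The wild-type call was lost without the first wild-type hindbrain array (log2 -2.11, adjusted p = 0.0532). The middle step of the order, Pax6 homozygous hindbrain against wild-type forebrain, was a log2 difference of -1.55 ± 0.23 (2.92-fold lower, adjusted p = 0.026, limma), in a comparison that differs in both genotype and tissue and in which 0.731% of probe sets passed. That call was lost when either Pax6 homozygous hindbrain array (log2 -1.54 and -1.56, adjusted p = 0.178 and 0.194), the second wild-type forebrain array (log2 -1.38, adjusted p = 0.136) or either wild-type hindbrain array (adjusted p = 0.0638 and 0.0667) was left out. The log2 change of Fabp7 in forebrain minus that in hindbrain was 0.91 ± 0.33 (95% interval 0.17 to 1.66). This difference between the parts did not pass over all probe sets (unadjusted p = 0.0215, adjusted p = 0.9995, limma), where 0 of 5881 passed and 112 had an unadjusted p under 0.05. It rests on Pax6 homozygous forebrain values at only 1.01 and 1.64 times noise, as does the difference between the parts within Pax6 homozygous tissue. In intensity units the difference of means, Pax6 homozygous minus wild-type, was -3026 in forebrain and -14642 in hindbrain.

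**Figure D2:**
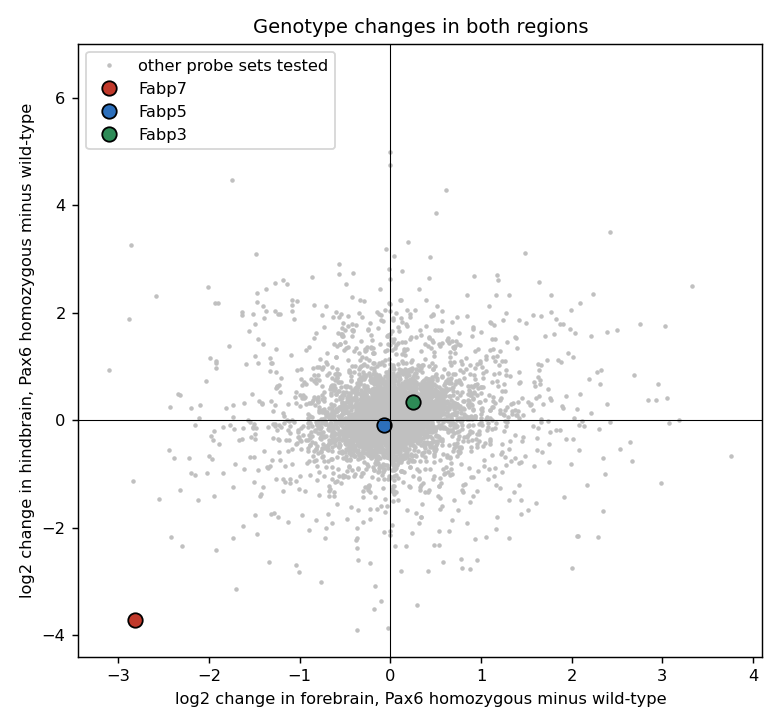
Log2 change (Pax6 homozygous minus wild-type) in forebrain on the horizontal axis and in hindbrain on the vertical axis, with 1 grey point for each probe set tested and coloured points for Fabp7, Fabp5 and Fabp3. Fabp7 lies at -2.81 and -3.72, in the lower left corner away from the other points, while Fabp5 and Fabp3 lie within the cloud near 0.

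Fabp5, which carries fatty acids in epidermis and in many embryonic cells and can deliver them to the receptor Ppard, stayed at nearly one level. Its intensities were 39327 and 46354 in Pax6 homozygous forebrain, against 44786 and 45136 in wild-type forebrain. They were 38186 and 41647 in Pax6 homozygous hindbrain, against 43834 and 41343 in wild-type hindbrain. The arrays of the genotypes overlapped in both parts, and the highest of the 8 values was 1.21 times the lowest.

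The log2 genotype change of Fabp5 was -0.07 ± 0.12 in forebrain (95% interval -0.36 to 0.21) and -0.09 ± 0.12 in hindbrain (95% interval -0.38 to 0.19), with an adjusted p = 1 from limma in each. Over both parts it was -0.08 ± 0.09 (95% interval -0.29 to 0.12). Quantile normalization of the arrays turned these signs, to 0.01 in forebrain, 0.02 in hindbrain and 0.01 over both. Between the parts the log2 difference, forebrain minus hindbrain, was 0.10 ± 0.12 in Pax6 homozygous and 0.08 ± 0.12 in wild-type tissue, and neither passed. The probe set's suffix marks probes that can match more than 1 transcript, and RefSeq lists 2 Fabp5 pseudogenes in rat, so signal from such a copy cannot be told apart.

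Fabp3, the heart and muscle form that is also made by neurons, read higher on the forebrain arrays than on the hindbrain arrays and did not pass for genotype. It measured 3582 and 3232 in Pax6 homozygous forebrain, against 2348 and 3473 in wild-type forebrain. It measured 1930 and 2156 in Pax6 homozygous hindbrain, against 1591 and 1625 in wild-type hindbrain. The genotypes overlapped in forebrain, while in hindbrain both Pax6 homozygous arrays lay above both wild-type arrays, as was the case for 20.1% of probe sets.

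The log2 genotype change of Fabp3 was 0.25 ± 0.26 in forebrain (95% interval -0.33 to 0.84) and 0.34 ± 0.26 in hindbrain (95% interval -0.24 to 0.93), neither past the threshold (adjusted p = 1 and 0.991, limma). Without the first wild-type forebrain array the forebrain change was -0.03. All 4 forebrain arrays, 2348 to 3582, stood above all 4 hindbrain arrays, 1591 to 2156. Over all probe sets, 2.28% were higher in this way in forebrain. Averaged over genotypes, Fabp3 was 1.72-fold higher in forebrain, a log2 difference of 0.78 ± 0.18 (95% interval 0.37 to 1.20) that missed the threshold (adjusted p = 0.0973, limma), where 0.289% of probe sets passed as higher. This average over genotypes was added after the region difference of Fabp3 had been seen.

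**Figure D3:**
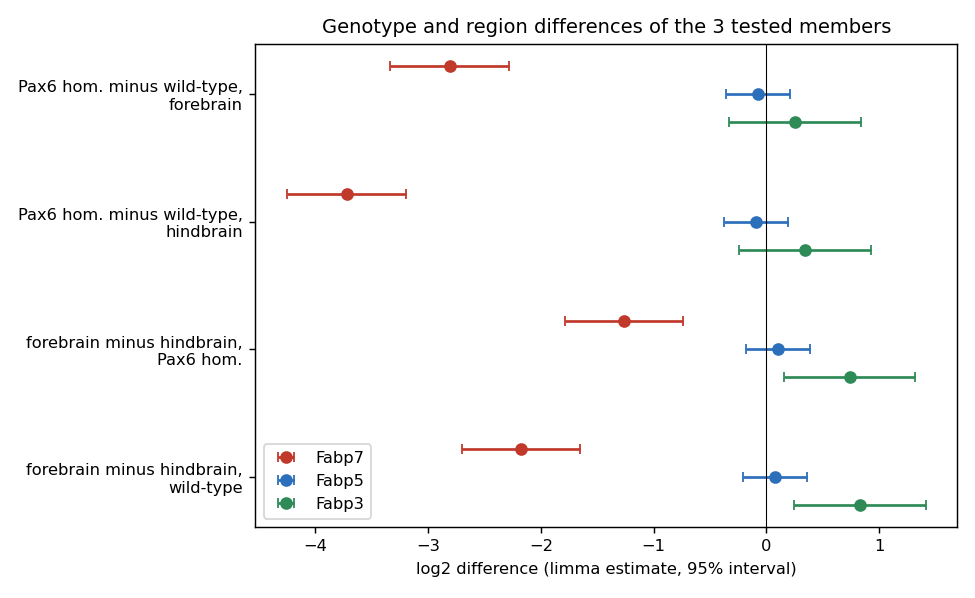
Log2 differences of Fabp7, Fabp5 and Fabp3 between genotypes within each part of the brain and between the parts within each genotype, as limma estimates with 95% intervals. The Fabp7 intervals lie below 0 in all 4 comparisons, the Fabp5 intervals all hold 0, and the Fabp3 intervals hold 0 for genotype and lie above 0 for forebrain minus hindbrain.

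The genotype change of Fabp7 was also set against that of each family member on the same arrays. Over both parts it was lower than the change of Fabp5 by a log2 difference of -3.18 (9.08-fold) and lower than the change of Fabp3 by -3.57 (11.8-fold). In both pairs the exact two-sided permutation test over arrays within each part gave p = 0.0556 (0.0556 adjusted over the 2 pairs), the smallest p that the 36 assignments allow. Fabp1, the liver form, read between -271.5 and -1.8 and was below 0 on 8 of 8 arrays. Fabp2, the intestinal form, read between 5.3 and 171, below the noise level on each array. Neither has a measured level here, so no change is given for them.

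The cellular retinoic acid binding proteins belong to the same protein family and hold retinoic acid in place of a fatty acid. Crabp1 averaged 44261 in Pax6 homozygous and 46795 in wild-type forebrain, while hindbrain had 51222 in Pax6 homozygous and 51072 in wild-type tissue. Crabp2 averaged 25444 in Pax6 homozygous and 32009 in wild-type forebrain, while hindbrain had 31271 in Pax6 homozygous and 33224 in wild-type tissue. Over both parts their log2 changes were -0.03 ± 0.09 and -0.20 ± 0.18, and neither passed.

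Genes that supply, sense or use fatty acids were then read from lists. Here and in the later lists, a gene was read from its brightest tested probe set, and its other probe sets were not used. None of the genes in the 4 lists that follow passed the threshold for genotype in forebrain, in hindbrain or over both, where 0.017%, 0.017% and 0.034% of all probe sets passed in limma. Values are log2 changes over both parts unless a part is named, and the median of all probe sets was 0.03. For uptake, activation and transport, 9 of 16 listed genes were tested, with a median of 0.12 and 6 changes above 0. Dbi, which binds acyl-CoA, had a log2 change of -0.16 ± 0.17, and Acsl3, an acyl-CoA synthetase, of 0.12 ± 0.12. Slc27a1, a fatty acid transporter, had the largest value of the list, 1.73 ± 0.84 (adjusted p = 0.928, limma), which ran between 0.12 and 2.61 under the alternatives. It was dim, with means of 662 for Pax6 homozygous and 90.9 for wild-type forebrain, and of 289 for Pax6 homozygous and 341 for wild-type hindbrain. Acsl5, another acyl-CoA synthetase, had a log2 change of 0.31.

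For lipid-sensing nuclear receptors, 6 of 10 were tested, with a median of -0.33 and 5 changes below 0. Nr1h2, a receptor for oxysterols, had a log2 change of -0.35 ± 0.19 (adjusted p = 0.928, limma), and Nr1h3, its close relative, of -0.35 ± 0.37. Ppard, the receptor linked to Fabp5, had a log2 change of -1.26 ± 1.00 in forebrain and 0.90 ± 1.00 in hindbrain. For beta-oxidation, 18 of 24 were tested, with a median of 0.09 and 12 changes above 0. Hadhb, a subunit of the mitochondrial trifunctional protein, had a log2 change of -0.33 ± 0.18, and Ech1, an isomerase of the pathway, of -0.39 (adjusted p = 0.928, limma). For synthesis and desaturation, 8 of 15 were tested, with a median of -0.08 and 3 changes above 0. Acly, which makes cytosolic acetyl-CoA, had a log2 change of 0.01 ± 0.11, Fasn, the fatty acid synthase, of -0.14 ± 0.26, and the desaturases Scd2 and Scd of -0.11 ± 0.12 and -0.17 ± 0.21.

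**Figure D4:**
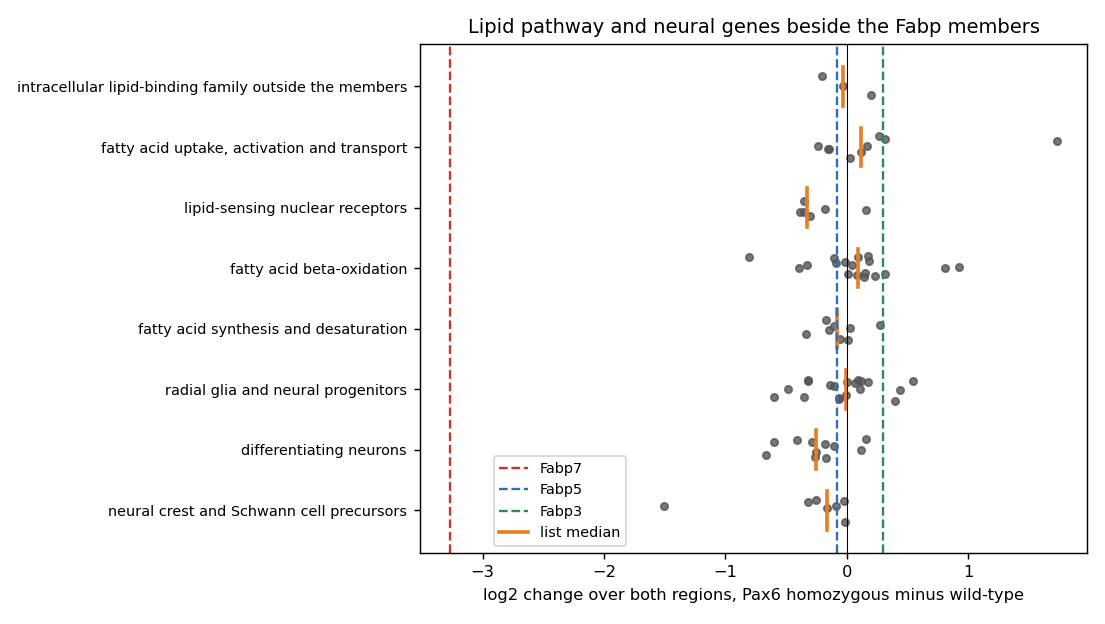
Log2 change over both parts of the brain (Pax6 homozygous minus wild-type) of each tested gene of 8 lists, 1 point per gene, with the list median as an orange bar and dashed lines for Fabp7, Fabp5 and Fabp3. No listed gene comes near the Fabp7 line at -3.27, and the list medians run between -0.33 and 0.12.

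Radial glia and other progenitors are the cells in which Fabp7 is best known, so their other markers were set beside it. In bulk tissue, fewer cells of a type and less RNA per cell cannot be told apart. All 19 of 22 listed markers with a probe set were tested. For genotype 0 passed in either part, where 0.017% of all probe sets passed in each. Their median change was -0.16 in forebrain and -0.03 in hindbrain, against 0.01 and 0.04 for all probe sets. Slc1a3, the glutamate transporter of radial glia, was read from 1 of its 4 probe sets. It averaged 1144 in Pax6 homozygous and 1136 in wild-type forebrain, while hindbrain had 1381 in Pax6 homozygous and 1408 in wild-type tissue. Nes, an intermediate filament of progenitors, had a log2 change of 0.08 ± 0.19 in forebrain and -0.09 ± 0.19 in hindbrain, and Vim, another, of -0.08 ± 0.15 and -0.14 ± 0.15.

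The markers furthest below 0 in forebrain were Ptn, a growth factor (-0.93 ± 0.44), Id3, an inhibitor of differentiation (-0.88 ± 0.31), and Cspg5, a proteoglycan (-0.74 ± 0.32), each with an adjusted p = 1 from limma. Notch1, a receptor that keeps progenitors dividing, had a log2 change of -0.28 ± 0.22 in forebrain and -0.42 ± 0.22 in hindbrain. Above 0 were 7 of the 19 changes in forebrain and 9 in hindbrain. The highest were those of Cdh2 in forebrain (0.41) and Slc1a2 in hindbrain (1.43). The summed intensity of the 19 markers was 118923 to 135806 in Pax6 homozygous and 147994 to 150744 in wild-type forebrain, while hindbrain had 156067 to 157764 in Pax6 homozygous and 155966 to 170849 in wild-type tissue. As a share of wild-type the sum was 85.3% in forebrain and 96.0% in hindbrain, where Fabp7 was at 14.2% and 7.56%. Of the 19 markers, 15 to 19 exceeded noise on each array. Their part in the Fabp7 result was not tested. Pax6 itself, also on this list, had a log2 change of 0.30 ± 0.42 in forebrain and 0.80 ± 0.42 in hindbrain, so its probe set does not separate the genotypes.

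Neural crest cells and Schwann cell precursors are known to contain Fabp7 as well. Their 7 tested markers summed to 6304 to 6726 in Pax6 homozygous and 6958 to 7578 in wild-type forebrain, while hindbrain had 11946 to 13124 in Pax6 homozygous and 15426 to 15678 in wild-type tissue. That was 89.6% of wild-type in forebrain and 80.6% in hindbrain. For genotype 0 of 7 passed, where 0.017% of all probe sets passed in each part. Ngfr, a receptor of crest cells, had a log2 change of -0.06 ± 0.21 in forebrain and -0.58 ± 0.21 in hindbrain (adjusted p = 0.989, limma). Sox10, the factor that defines crest glia, averaged -284 in Pax6 homozygous and 189 in wild-type forebrain, while hindbrain had 312 in Pax6 homozygous and 527 in wild-type tissue, close to or below noise. The crest sums were 1.92-fold higher in hindbrain than in forebrain in Pax6 homozygous and 2.14-fold in wild-type tissue. In other lists the same ratios were 1.81 and 2.19 for neurons, 5.87 and 5.57 for muscle, and 0.95 and 0.89 for blood. The crest sums were higher in Pax6 homozygous hindbrain than in wild-type forebrain. Of the 7 crest markers, 4 to 7 exceeded noise on each array. The part of crest cells in the Fabp7 result was not tested.

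Markers of differentiating neurons, of which 11 of 15 were tested, summed to less in Pax6 homozygous hindbrain. The sum was 39566 to 42177 in Pax6 homozygous and 43712 to 44420 in wild-type forebrain, while hindbrain had 71681 to 76402 in Pax6 homozygous and 90423 to 102358 in wild-type tissue. In hindbrain 10 of 11 changes were below 0, with a median of -0.25, and 0 passed, where 0.017% of all probe sets did. Ina, a neurofilament, had a log2 change of -0.87 ± 0.20 there (adjusted p = 0.894, limma) and Gap43, a growth cone protein, of -0.71 ± 0.19. Between the parts, 3 of the 11 passed as lower in forebrain in wild-type and 2 in Pax6 homozygous tissue. Of all probe sets, 0.578% and 0.323% passed as lower there. Among the other neurofilaments of the list, Nefl and Nefm passed between the parts and not between genotypes, and Nefh passed in neither. Both were lower in forebrain than in hindbrain, with log2 differences of -2.28 and -2.69 in Pax6 homozygous and of -2.94 and -2.86 in wild-type tissue. The part of these neurons in the Fabp7 and Fabp3 results was not tested.

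Heart and skeletal muscle contain Fabp3, and the hindbrain dissections held the pharyngeal arches. The 13 tested muscle markers summed to 4172 to 6635 in Pax6 homozygous and 5057 to 6440 in wild-type forebrain, while hindbrain had 29300 to 34109 in Pax6 homozygous and 29610 to 34445 in wild-type tissue. Actc1, the cardiac actin that early muscle also makes, averaged -7.6 in Pax6 homozygous and -68.7 in wild-type forebrain, while hindbrain had 15373 in Pax6 homozygous and 15613 in wild-type tissue. The muscle sum was 5.87-fold higher in hindbrain than in forebrain in Pax6 homozygous and 5.57-fold in wild-type tissue. Of the 13 markers, 1 read higher in forebrain in Pax6 homozygous and 3 in wild-type tissue. On each array, 4 to 12 of them exceeded noise. The part of muscle in the Fabp3 result was not tested. For Fabp5, epidermis was read from 6 tested markers, whose summed level in Pax6 homozygous tissue was 95.5% of wild-type in forebrain and 95.6% in hindbrain. Krt5, a keratin of basal epidermis, averaged 1774 in Pax6 homozygous and 1861 in wild-type forebrain, while hindbrain had 1612 in Pax6 homozygous and 2050 in wild-type tissue.

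The genes whose pattern over the 8 arrays was most like that of Fabp7 were taken by Pearson's r of log2 intensity. They came from 4344 probe sets, with 1 kept per gene, as a description, since the points share arrays and groups. They were Ptms (r = 0.959), Ech1 (0.881), Gse1 (0.879), Fez1 (0.879), Slc25a1 (0.874), Atp9a (0.864), Grina (0.863) and Supt5h (0.861). Ptms, which encodes parathymosin, measured 5461 and 5288 in Pax6 homozygous forebrain, against 7315 and 7160 in wild-type forebrain. It measured 6038 and 5820 in Pax6 homozygous hindbrain, against 8761 and 7552 in wild-type hindbrain. Its order of groups was that of Fabp7, at a far smaller scale: the log2 change was -0.43 in forebrain and -0.46 in hindbrain.

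Among the other 7, the log2 genotype change lay between -0.63 (Slc25a1, the mitochondrial citrate carrier, in forebrain) and -0.17 (Atp9a, a phospholipid flippase, in forebrain), except for Supt5h. Supt5h, an elongation factor of RNA polymerase II, had a log2 change of -2.41 in forebrain and -2.18 in hindbrain, and 1 of 2 arrays in each Pax6 homozygous group exceeded noise. None of the 8 passed for genotype (lowest adjusted p = 0.0646, Supt5h over both parts, limma).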

How the data were processed

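Per the labels' protocols, poly(A) RNA was labelled as biotin cRNA and hybridised to Affymetrix rat arrays of the U34 set. The authors deposited 1 linear intensity per probe set and array. The software behind them and how it scaled the arrays: not given in the sources used here. Each array's mean after trimming 2% at both ends was 2500, so that scaling was kept, and 18.3% to 22.3% of each array's intensities were negative. Of 8799 probe sets, 59 were controls. The platform annotation gave 7018 a single symbol, 308 several and 1473 none; probe sets with several were not named.

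Lower intensities were raised to a floor of 45.9, the 25th percentile over all arrays, before log2. The 5881 probe sets that exceeded 255, the 40th percentile, on 2 or more arrays were tested. The 8 arrays entered 1 model of 4 group means in limma 3.58.1 (R 4.3.3; lmFit, eBayes with an intensity trend; 4 residual and 4.63 prior degrees of freedom), with Benjamini-Hochberg adjustment over all probe sets tested and a threshold of 0.05; the procedure was tested on simulated data. A change is Pax6 homozygous minus wild-type, and ± is limma's standard error beside a log2 change and SD beside a mean. The number of arrays limits the precision.

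The members, the 15 gene lists and the tests were chosen with earlier results of these data known. Named genes were all members, Pax6, the 2 genes of each list with the smallest p over both parts and any past the threshold, and the 8 genes most like Fabp7. Slc1a3, Nes, Vim, Ptn, Cspg5, Cdh2, Slc1a2, Dbi, Acsl3, Ppard, Acly, Fasn, Nefh, Crabp1 and those under other observations outside this rule were named after their values were seen. Promoters came from RefSeq (4 of 5 members had one; 5 of 5 symbols matched by gene ID). Alternatives were other floors, no filter, no trend, quantile normalization, a replicate block, fewer arrays in the fit and leaving out each array.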

Additional observations from a re-analysis of the deposited data

How the results depend on the processing

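Fabp7 stayed past the threshold in hindbrain under 15 of 15 alternatives (log2 -3.80 to -3.66, adjusted p 0.000485 to 0.0213, limma) and over both parts under 14 of 14 (-3.35 to -3.18, 8.6e-05 to 0.00378). In forebrain it kept -2.81 but missed the threshold with no filter (adjusted p = 0.0613), no trend (0.0756) and only the 4 forebrain arrays (1); without 1 array it ran between -2.98 and -2.64. With only the compared arrays, Pax6 homozygous hindbrain against wild-type forebrain kept -1.55 (adjusted p = 0.168), and without 1 array it ran between -1.72 and -1.38. The wild-type difference between the parts ran between -2.34 and -2.01 without 1 array. The differences from Fabp5 and Fabp3 ran between -3.29 and -3.13 and between -3.57 and -3.51 under both other floors and quantile normalization. Without 1 array, an alternative chosen after seeing the data, they ran between -3.28 and -3.08 and between -3.62 and -3.51. Over both parts, 28 of 37 named genes, the Fabp genes left out, moved by over 1.5 times or turned sign under at least 1 alternative. Among them were Kdr (-1.14 to -0.14), Sox10 (-1.95 to -0.08) and Nr1h3 (-0.61 to -0.09). 

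Counts moved more. In forebrain 3 probe sets passed with a floor at the median, 0 with no filter, no trend or only the compared arrays, and 0 to 5 without 1 array. In hindbrain the counts were 15 with that floor, 22 with no filter, 5 with no trend, 2 with only the compared arrays and 1 to 3 without 1 array. Over both they were 10, 19 (no filter) and 1 to 5. For the difference between the parts in genotype change they were 8, 13, 4 (no trend) and 0 to 1. With only the compared arrays, 21 passed between the parts in wild-type and 18 for Pax6 homozygous hindbrain against wild-type forebrain. Without 1 array, counts were 14 to 32 between the parts in Pax6 homozygous tissue, 23 to 49 in wild-type, 37 to 82 over both genotypes and 12 to 54 for Pax6 homozygous hindbrain against wild-type forebrain.

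Arrays with the same number deviated together (correlations 0.275 to 0.465 over 6 pairs of groups), but the labels name no shared batch. With the replicate number as a block, 2 passed in hindbrain, 65 between the parts in Pax6 homozygous tissue, 65 for Pax6 homozygous hindbrain against wild-type forebrain and 139 over both genotypes, against 1, 27, 43 and 89 without it. Fabp7 then passed between the parts in Pax6 homozygous tissue (-1.26, adjusted p = 0.0301) and Fabp3 over both genotypes (0.78, 0.0465). 

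Small changes, none past the threshold, turned sign. For Fabp5, quantile normalization gave 0.0103 in forebrain, 0.0193 in hindbrain, 0.0148 over both and -0.00903 for the difference in change between the parts. Without 1 array Fabp5 ran between -0.193 and 0.0440 in forebrain, -0.0201 and 0.217 between the parts in Pax6 homozygous tissue and -0.0989 and 0.138 for the difference in change, and Fabp3 between -0.0293 and 0.535 in forebrain and -0.372 and 0.192 for the difference. The floor at the median gave Ptprz1 -0.0328 and Actc1 -0.0137 over both. Over both, without 1 array, Fabp6 ran between -0.0193 and 0.423, Scd2 -0.224 and 0.00667, Ptprz1 -0.0576 and 0.239, Nefm -0.386 and 0.0451, Nppa -0.0374 and 1.18, Actc1 -0.0196 and 0.134, Myh3 -0.314 and 0.516, Acta1 -1.08 and 0.420, Krt19 -0.415 and 0.0156, and Flt1 -0.0819 and 0.313. The causes were not tested. Scaling moved the median of all probe sets by at most 0.072.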

Other observations

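Other members of the lipid-binding family gave little to read. Fabp6, the ileal form that carries bile acids, has 2 probe sets that disagree: one read between 4662 and 11061 and exceeded noise on 8 of 8 arrays, and the other read between -512.9 and -127.6. The bright one had a log2 genotype change of 0.20 ± 0.24 over both parts (adjusted p = 0.961, limma). Fabp4 (-401.8 to -148.7), Fabp9 (-92 to 100), Fabp12 (-657.3 to -294) and Rbp2 (-63.3 to 95.5) exceeded noise on 0 of 8 arrays.

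Lists named for tissues outside the neural tube were read in the same way. For genotype 0 of their tested markers passed, where 0.017% of all probe sets passed in each part. The lens showed the widest gap, in forebrain: its 9 tested markers summed to 3925 to 5528 in Pax6 homozygous and 10999.7 to 11223 in wild-type forebrain, 42.5% of wild-type, and 9 of 9 changes were below 0. Those changes ran from -2.88 (Crybb3) to -0.01 (Crybb2), and 3 to 8 of the 9 markers exceeded noise on each array. Cryaa, a lens crystallin, averaged 993 in Pax6 homozygous and 5087 in wild-type forebrain, and Crybb3, another, 312 in Pax6 homozygous and 2010 in wild-type forebrain. In blood, with 6 markers tested, 6 of 6 changes were below 0 in forebrain, where the sum was 81.5% of wild-type, and the globins Hbg1 and Hbb-b1 stood at -0.30 ± 0.08 and -0.55 ± 0.16 on the log2 scale over both parts (adjusted p = 0.801 each, limma). The probe sets of Hbb, Hbb-b1 and Hbg1 carry a suffix for probes that can match several genes of a family, so their changes may not be separate. In the endoderm list, with 7 tested, 4 read higher in forebrain in each genotype and 1 passed between the parts, which was Ttr, lower in forebrain. Of all probe sets, 0.578% passed as lower in forebrain in wild-type and 0.323% in Pax6 homozygous tissue. Which tissue of the dissections the Ttr signal came from was not tested. Ttr, which carries thyroid hormone, averaged -3.85 in Pax6 homozygous and 30.2 in wild-type forebrain, while hindbrain had 6382 in Pax6 homozygous and 9700 in wild-type tissue. Foxa2, an endoderm and floor plate factor, had a log2 change of 0.40 ± 0.32 over both parts. In endothelium, with 3 tested, the log2 change of Kdr stood at -0.64 ± 0.58 and that of Flt1 at 0.12 ± 0.31. In macrophages, with 4 tested, the log2 change of C1qb stood at -1.30 ± 0.68 (-2.07 to -0.53 without 1 array) and that of Aif1 at -0.26 ± 0.40.

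Among progenitor genes Ptprz1, a receptor phosphatase of radial glia, differed between the parts in the opposite direction to Fabp7. It averaged 2169 in Pax6 homozygous forebrain and 561 in Pax6 homozygous hindbrain, and 2432 in wild-type forebrain and 443 in wild-type hindbrain, where the log2 difference, forebrain minus hindbrain, was 2.48 ± 0.35 (adjusted p = 0.0152, limma). Besides Fabp7, the probe sets at -1 or lower in both parts and above noise on all 4 wild-type arrays were those of Plcb4 (-2.12 in forebrain and -1.48 in hindbrain), Supt5h (-2.41 and -2.18), Syt5 (-1.10 and -1.09) and Polr2a (-1.11 and -1.16). None of these 4 passed for genotype in either part.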
